A study of Mus musculus with 12 samples.

Results

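The hearts of mice on a diet without branched-chain amino acids were compared with those of mice on a control diet, in animals that had a sham operation and so no added load on the heart. The branched-chain amino acids leucine, isoleucine and valine cannot be made by mammals, and muscle, the heart included, is a main site of their breakdown. Their first steps are a transamination by BCAT enzymes and an irreversible oxidative step by the mitochondrial branched-chain ketoacid dehydrogenase complex, which a kinase (Bckdk) switches off and a phosphatase (Ppm1k) switches on. Leucine also feeds the growth kinase complex mTORC1, and a shortage of an amino acid is known to raise genes driven by the transcription factor ATF4.

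The series held 12 libraries of poly(A) RNA from heart tissue of male C57Bl/6J mice aged 12 weeks, 3 in each of 4 groups. They were BCAA-free diet with sham surgery, BCAA-control diet with sham surgery, and the same diets with transverse aortic constriction (TAC), a banding of the aorta that loads the left ventricle. The control diet carried all essential amino acids, with the branched-chain ones at chow-like levels. Each diet began 4 days before surgery and went on until the heart was taken 1 week after it. The comparison here was of the 3 BCAA-free sham libraries against the 3 control diet sham libraries, 6 of the 12, over all genes of their table: 17910 genes were listed and 17862 had a mean of at least 10 normalized reads and were tested. The labels do not say that the libraries of a group came from separate animals, nor which chamber was sampled, so the p-values measure the spread between these libraries, which may in part be technical.

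The libraries held between 74205367 and 110446728 reads assigned to genes, and the deposited values are read counts divided by a scale factor per library (normalized reads). The 12 cardiomyocyte markers, such as Myh6 and Tnnt2, summed to 7555250 to 8196900 normalized reads in BCAA-free sham hearts and 7225940 to 7681810 in control diet sham hearts. Mitochondrially coded genes took 22.6 to 23.6% of reads in BCAA-free hearts and 22.4 to 27.1% in control diet hearts. Control diet sham 2 stood apart in 3 short structured RNAs (Rn7sk, Rmrp and Rpph1), with 115.5 CPM (reads scaled to a common library total) against 2.06 to 3.89 in the other 5 libraries. The first principal component, with 31.9% of the variance, separated the diets, and the second, with 22.8%, ran from -25.0 in control diet sham 1 to 35.8 in control diet sham 2. Clock genes also differed between control diet libraries: Arntl, a core clock activator, had 552, 809 and 593 normalized reads in BCAA-free hearts and 2170.4, 313 and 1198 in control diet hearts.

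Without dietary branched-chain amino acids, 227 genes were higher and 406 lower in sham hearts (limma, Benjamini-Hochberg adjusted p under 0.05). That was 3.54% of the genes tested, 1.27% higher and 2.27% lower. The changes were mostly small: 8 of the genes that rose and 49 of those that fell changed at least 2-fold, and 33 and 173 at least 1.5-fold. The median log2 fold change over all genes tested was 0.0019. Protein-coding genes made up 213 of the rises and 398 of the falls. Genes of the matrix, of cell division and of interferon response with antigen presentation were among the falls, and genes of branched-chain amino acid breakdown among the rises.

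**Figure D1:**
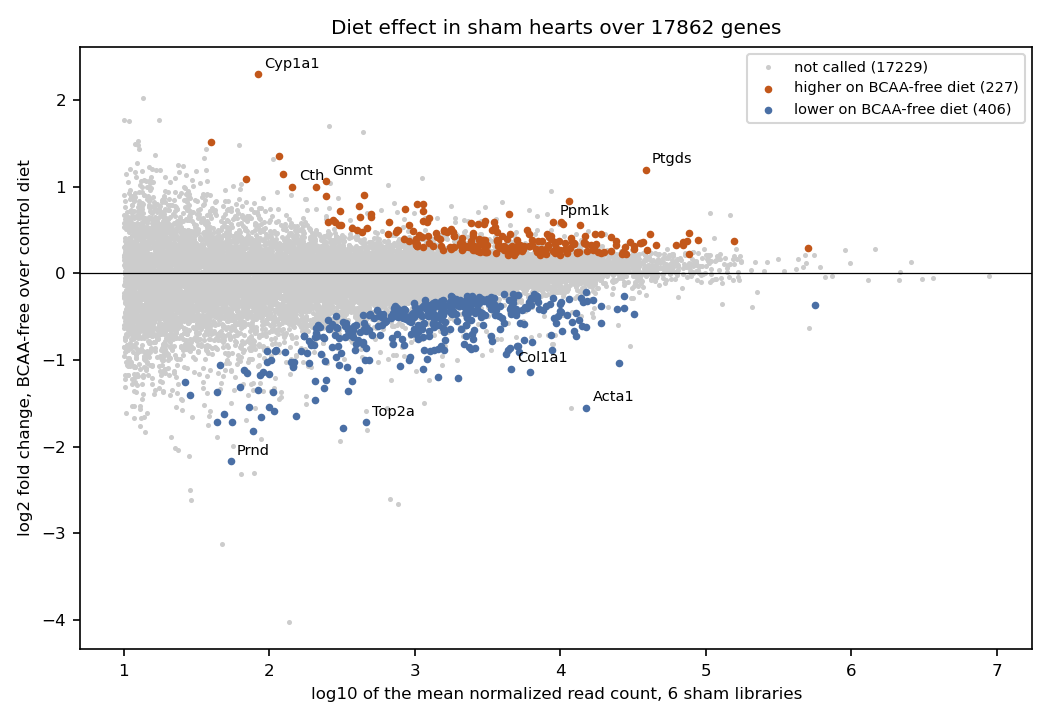
Log2 fold change (BCAA-free over control diet, sham hearts) of each of 17862 genes against the log10 of its mean normalized read count over 6 libraries. Orange points are the 227 genes called higher, blue points the 406 called lower and grey points genes not called; most calls lie within 1 log2 unit of 0, with Cyp1a1 highest at 2.30 and Prnd lowest at -2.17 among the called genes.

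The number of calls rested on the libraries. It was 50, 225 and 136 without BCAA-free sham 1, 2 and 3 in turn, and 453, 1071 and 184 without control diet sham 1, 2 and 3 in turn. All 633 genes kept their sign with each library left out, and 42 kept their call each time. Of the 102 genes named by rule that were tested 70 were called, and 11 of these kept their call each time, so most calls among these 70 were lost without at least 1 library. DESeq2 on the recovered whole reads called 1522 genes, 566 higher and 956 lower, and edgeR 700, 240 higher and 460 lower. Scaling to the reads outside the mitochondrially coded genes gave 116 higher and 432 lower, so that 78.8% of calls were lower in place of 64.1%, with the median of all genes at -0.044 on the log2 scale.

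Genes of branched-chain amino acid breakdown were higher without these amino acids in the diet. Of 28 tested genes of the pathway, 6 rose and 0 fell (over all genes tested, 1.27% rose and 2.27% fell). A fold change above 0 was seen in 27, and the median log2 fold change was 0.18 against 0.0019 over all genes. Ppm1k, the phosphatase that activates the ketoacid dehydrogenase, had 11137, 10803 and 10343 normalized reads in BCAA-free hearts and 6565, 7847 and 6957 in control diet hearts. All BCAA-free libraries lay above all control diet libraries (log2 fold change 0.60 ± 0.07, limma adjusted p = 0.00391), and Ppm1k kept its call without any 1 library, with an adjusted p of at most 0.0428.

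Within the ketoacid dehydrogenase itself, the transacylase core Dbt rose, with 8153, 8427 and 7746 normalized reads in BCAA-free hearts and 6442, 6601 and 6894 in control diet hearts (log2 fold change 0.29 ± 0.056, limma adjusted p = 0.0254). The E1 alpha subunit Bckdha had 11157, 9938 and 10798 normalized reads in BCAA-free hearts and 8796, 9340.5 and 8772 in control diet hearts, with no overlap between the groups, but missed the threshold (log2 fold change 0.24 ± 0.06, limma adjusted p = 0.0541). The E1 beta subunit Bckdhb (log2 fold change 0.18 ± 0.055, limma adjusted p = 0.096) and the inhibitory kinase Bckdk (log2 fold change 0.12 ± 0.063, limma adjusted p = 0.309) were not called. Neither was the mitochondrial transaminase Bcat2, with 9315, 8176 and 8776 normalized reads in BCAA-free hearts and 8084, 7505 and 7063 in control diet hearts (log2 fold change 0.21 ± 0.069, limma adjusted p = 0.114). Whether the changes of the phosphatase and the kinase differ from each other was not tested.

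Steps further down each of the 3 branches also rose. Ivd, the leucine-branch isovaleryl-CoA dehydrogenase, had 38573, 34044 and 34327 normalized reads in BCAA-free hearts and 29174, 28208 and 28504 in control diet hearts (log2 fold change 0.31 ± 0.061, limma adjusted p = 0.0254). Acadsb, which acts on the isoleucine branch, had 18513, 18026 and 18131 normalized reads in BCAA-free hearts and 15104, 13586 and 14787 in control diet hearts (log2 fold change 0.33 ± 0.057, limma adjusted p = 0.0154). Aldh6a1, the methylmalonate semialdehyde dehydrogenase of the valine branch, had 28534, 26616 and 26554 normalized reads in BCAA-free hearts and 20342, 20625 and 21869 in control diet hearts (log2 fold change 0.38 ± 0.057, limma adjusted p = 0.01). Mut, the mutase that passes propionyl-derived carbon into the citric acid cycle, rose as well (log2 fold change 0.24 ± 0.049, limma adjusted p = 0.0292). In each of these 4 genes the lowest BCAA-free library was above the highest control diet library.

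**Figure D2:**
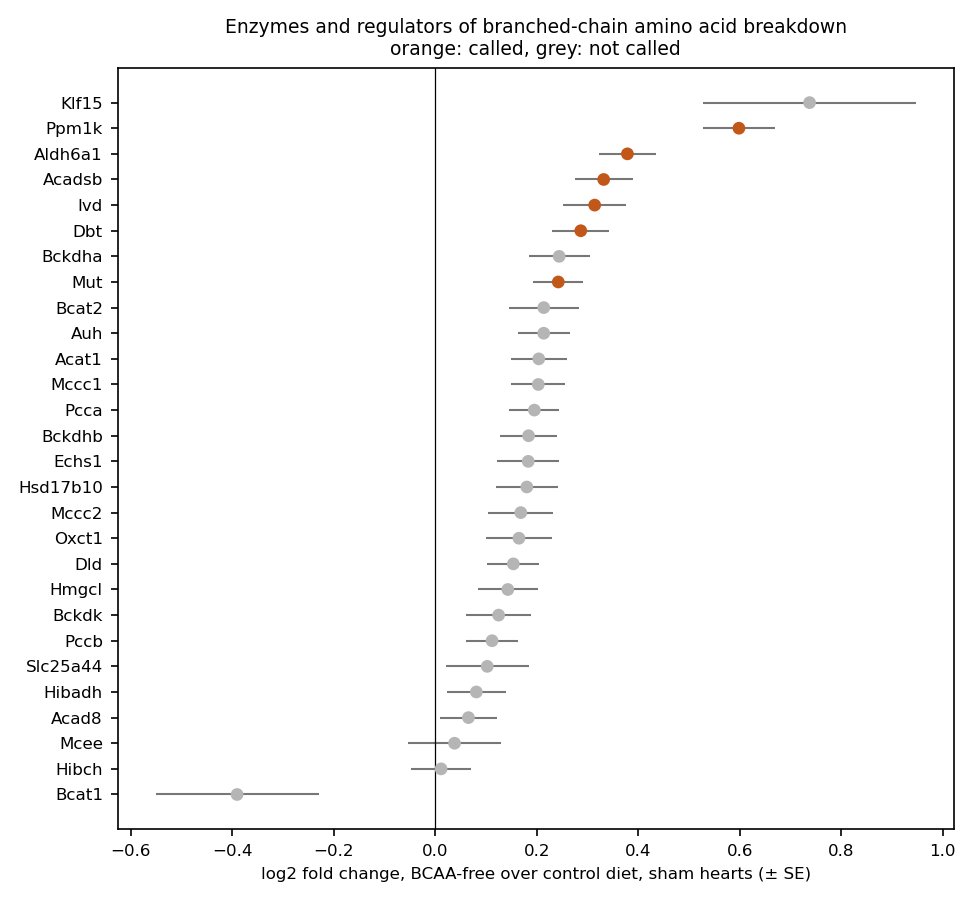
Log2 fold change (BCAA-free over control diet, sham hearts) with its standard error for the 28 tested genes of branched-chain amino acid breakdown, 3 libraries a group. Orange points are the 6 called genes, from Ppm1k at 0.60 to Mut at 0.24; Klf15, with a wide error, and Bcat1, the only gene below 0, are not called.

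The pathway's transcription factor Klf15 varied more, with 7484, 7888 and 7129 normalized reads in BCAA-free hearts and 5756, 4801 and 3283 in control diet hearts, and was not called (log2 fold change 0.74 ± 0.21, limma adjusted p = 0.134). The cytosolic transaminase Bcat1 was the only member below 0 (log2 fold change -0.39 ± 0.16, limma adjusted p = 0.208). The number of members called higher was 1, 2 and 2 without BCAA-free sham 1, 2 and 3 in turn, and 8, 7 and 5 without control diet sham 1, 2 and 3 in turn. Aldh6a1 lost its call without BCAA-free sham 1, with an adjusted p of up to 0.076. Dbt lost its call without BCAA-free sham 1, 2 or 3, with an adjusted p of up to 0.118. Acadsb lost its call without BCAA-free sham 1, 2 or 3, with an adjusted p of up to 0.0934. Ivd lost its call without BCAA-free sham 1, 2 or 3 or control diet sham 3, with an adjusted p of up to 0.114, and Mut lost its call without BCAA-free sham 1, 2 or 3 or control diet sham 3, with an adjusted p of up to 0.125. Scaled to the reads outside the mitochondrially coded genes, 4 members rose.

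Of 34 tested genes known to answer an amino acid shortage through ATF4, 2 rose and 2 fell (over all genes tested, 1.27% rose and 2.27% fell). More members leaned lower than higher: 22 had a fold change below 0 and 12 above, with a median log2 fold change of -0.13. At an unadjusted limma p under 0.05, 5 were higher and 13 lower, and DESeq2 called 3 higher and 7 lower. Asns, the asparagine synthetase and a classical target, had 248, 249 and 178 normalized reads in BCAA-free hearts and 316, 418 and 389 in control diet hearts. It was lower in every BCAA-free library than in any control diet library (log2 fold change -0.74 ± 0.17, limma adjusted p = 0.0411), and lost its call without BCAA-free sham 1, 2 or 3 or control diet sham 2 or 3, with an adjusted p of up to 0.13. Aldh18a1, of proline synthesis, also fell, with 653, 639.6 and 606 normalized reads in BCAA-free hearts and 913, 878 and 862 in control diet hearts (log2 fold change -0.48 ± 0.081, limma adjusted p = 0.0145). The gene for ATF4 itself had 5119, 5089.8 and 5229.8 normalized reads in BCAA-free hearts and 6039, 6092 and 5143 in control diet hearts, with overlapping groups (log2 fold change -0.16 ± 0.07, limma adjusted p = 0.243).

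Cth, which cleaves cystathionine to cysteine and is on the same list, went the other way, with 180.3, 164 and 234 normalized reads in BCAA-free hearts and 82, 118 and 87.9 in control diet hearts (log2 fold change 1.00 ± 0.20, limma adjusted p = 0.0263). Vldlr, a lipoprotein receptor, rose by a smaller amount (log2 fold change 0.36 ± 0.069, limma adjusted p = 0.0234). Psat1 of serine synthesis (log2 fold change -0.51 ± 0.16, limma adjusted p = 0.106) and the feedback genes Trib3 (log2 fold change -0.16 ± 0.17, limma adjusted p = 0.644) and Sesn2 (log2 fold change 0.036 ± 0.14, limma adjusted p = 0.918) were not called. Gdf15, a stress hormone, had 65.2, 58.1 and 97.8 normalized reads in BCAA-free hearts and 108, 115 and 94.4 in control diet hearts and was not called (log2 fold change -0.55 ± 0.23, limma adjusted p = 0.207). Fgf21 was not tested here. Rises on the list numbered 0, 0 and 0 without BCAA-free sham 1, 2 and 3 in turn, and 2, 3 and 1 without control diet sham 1, 2 and 3 in turn, and falls 0, 1 and 0 without BCAA-free sham 1, 2 and 3 in turn, and 4, 1 and 1 without control diet sham 1, 2 and 3 in turn. Cth lost its call without BCAA-free sham 1, 2 or 3 or control diet sham 1 or 3, with an adjusted p of up to 0.108.

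Uptake, charging and sensing of amino acids showed few calls (over all genes tested, 1.27% rose and 2.27% fell). Among 28 amino acid transporters limma called 0, with 7 at an unadjusted p under 0.05 (3 higher, 4 lower); edgeR called 0 and DESeq2 1. Slc7a5, the leucine carrier, had 387, 477 and 379.8 normalized reads in BCAA-free hearts and 487, 622 and 700.3 in control diet hearts (log2 fold change -0.53 ± 0.15, limma adjusted p = 0.0746), while its partner Slc3a2 overlapped between groups (log2 fold change 0.071 ± 0.083, limma adjusted p = 0.688). Of 38 listed aminoacyl-tRNA synthetases only 20 were found by name and tested, and the rest were not examined. Of these 20, 0 were called, with 5 at an unadjusted p under 0.05 and 0 by edgeR or DESeq2. Of 43 genes of mTORC1 and amino acid sensing 1 rose: Rragd, a Rag GTPase that brings mTORC1 to the lysosome, with 14476, 13149 and 14201 normalized reads in BCAA-free hearts and 10714, 10899.9 and 11334 in control diet hearts (log2 fold change 0.34 ± 0.057, limma adjusted p = 0.0141). Of 75 cytosolic ribosomal protein genes limma called 0 and edgeR 0, DESeq2 called 2 higher, 7 had an unadjusted p under 0.05, and 70 of 75 had a fold change above 0 (median 0.086).

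A few enzymes of other amino acids are described singly, all but Gnmt named after their values were seen; they came from no list, and how many such enzymes did not rise was not counted. Gnmt, which uses up methyl groups of S-adenosylmethionine on glycine, had 397, 285 and 320.1 normalized reads in BCAA-free hearts and 139, 194 and 146 in control diet hearts (log2 fold change 1.06 ± 0.17, limma adjusted p = 0.0136). Glul, the glutamine synthetase, had 48470.2, 45661 and 49464 normalized reads in BCAA-free hearts and 32078, 38349 and 34505 in control diet hearts (log2 fold change 0.46 ± 0.071, limma adjusted p = 0.0109). The aspartate aminotransferase Got1 rose by a small amount (log2 fold change 0.23 ± 0.053, limma adjusted p = 0.0439), as did Abat, which breaks down GABA (log2 fold change 0.64 ± 0.14, limma adjusted p = 0.0404), and Gcdh of lysine breakdown (log2 fold change 0.33 ± 0.061, limma adjusted p = 0.021). Groups did not overlap in any of these 5 genes. Gnmt lost its call without BCAA-free sham 1 or 3 or control diet sham 3, with an adjusted p of up to 0.0831, Glul lost its call without BCAA-free sham 1 or 3, with an adjusted p of up to 0.078, and Gcdh lost its call without BCAA-free sham 1 or 3 or control diet sham 3, with an adjusted p of up to 0.113. Abat lost its call without BCAA-free sham 1 or 2 or control diet sham 1, 2 or 3, with an adjusted p of up to 0.132, and Got1 lost its call without BCAA-free sham 1, 2 or 3 or control diet sham 1, 2 or 3, with an adjusted p of up to 0.177.

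Extracellular matrix genes were lower in BCAA-free sham hearts. Of 44 tested, 0 rose and 19 fell (over all genes tested, 1.27% rose and 2.27% fell). A fold change below 0 was seen in 42, and the median log2 fold change was -0.57. Between the groups 33 did not overlap in the lower direction (over all genes tested, 26.1% did not overlap in either direction and 12.9% in the lower one). Col1a1, the alpha 1 chain of type I collagen, had 2779, 3125 and 2774 normalized reads in BCAA-free hearts and 6474, 5479 and 6697 in control diet hearts. All BCAA-free libraries lay below all control diet libraries, with little spread in either group (log2 fold change -1.10 ± 0.083, limma adjusted p = 0.000673). Its partner chain Col1a2 had 5801, 6692 and 5978 normalized reads in BCAA-free hearts and 11599, 10677 and 11873 in control diet hearts (log2 fold change -0.89 ± 0.069, limma adjusted p = 0.000673).

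Chains of other collagens fell too. Col5a1, a chain that starts collagen fibrils, had 2449, 2712 and 2447 normalized reads in BCAA-free hearts and 4349.6, 3782 and 4418 in control diet hearts (log2 fold change -0.72 ± 0.075, limma adjusted p = 0.00263). Col5a2 (-0.76), Col6a1 (-0.77), Col6a2 (-0.91), Col6a3 (-0.82), Col8a1 (-0.54), Col15a1 (-1.13), Col16a1 (-0.44) and Col18a1 (-0.70, all log2 fold changes) also fell. Col3a1, the main partner of type I collagen, had a log2 fold change of -1.55 and an adjusted p of 0.0517, just over the threshold. Serpinh1, the collagen chaperone (named after its values were seen), fell with them, with 12445, 11213 and 12051 normalized reads in BCAA-free hearts and 18422, 17604 and 18644 in control diet hearts (log2 fold change -0.62 ± 0.058, limma adjusted p = 0.00175).

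Matrix glycoproteins and enzymes fell too. Postn, the periostin of activated fibroblasts, had 2751, 3844 and 2696 normalized reads in BCAA-free hearts and 6644, 5143 and 5215 in control diet hearts (log2 fold change -0.88 ± 0.17, limma adjusted p = 0.0449). Sparc (-1.04), Tnc (-1.16), Mfap4 (-0.97), Bgn (-0.54) and Cilp (-0.47), all secreted matrix proteins, fell, as did the gelatinase Mmp2 (-0.78) and the collagen crosslinker Loxl2 (-0.88). Not all members did: Dcn, the proteoglycan decorin, stood at 0.12 (adjusted p = 0.446) and Thbs2, a thrombospondin, at 0.60 (adjusted p = 0.111). The growth factor Tgfb1, known to drive matrix genes in fibroblasts and named after its values were seen, had 1154, 1278 and 1296 normalized reads in BCAA-free hearts and 1681, 1783 and 1894 in control diet hearts (log2 fold change -0.52 ± 0.076, limma adjusted p = 0.009). Tgfb3 also fell (log2 fold change -0.37 ± 0.077, limma adjusted p = 0.0324). Tgfb1 lost its call without BCAA-free sham 1, with an adjusted p of up to 0.0643. Tgfb3 lost its call without BCAA-free sham 1, 2 or 3 or control diet sham 1, 2 or 3, with an adjusted p of up to 0.118.

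Most fibroblast markers moved in the same direction, to a smaller extent. Of 12 markers 3 fell (Col15a1, Smoc2 and Ddr2) and 0 rose, with a median of -0.33 (over all genes tested, 2.27% fell and 1.27% rose). A fold change below 0 was seen in 8 markers and above 0 in 4. Col15a1 is also on the matrix list, so the lists are not independent. The defining marker Pdgfra was at 0.13 (adjusted p = 0.251). Their summed level was 154881 to 161499 normalized reads in BCAA-free hearts and 162579 to 188445 in control diet hearts, and these ranges did not overlap (two-sided exact permutation test p = 0.1, the smallest that 3 against 3 allow, adjusted over 17 measures 0.567). In whole tissue, fewer cells of a type and less RNA per cell cannot be told apart, and the part of fibroblast content in the matrix result was not tested. The number of matrix genes called lower was 3, 19 and 7 without BCAA-free sham 1, 2 and 3 in turn, and 12, 29 and 10 without control diet sham 1, 2 and 3 in turn. Col1a1, Col1a2 and Col5a1 each kept their call without any 1 library, with adjusted p of at most 0.0135, 0.0135 and 0.0287. Postn lost its call without BCAA-free sham 1 or 3 or control diet sham 1, 2 or 3, with an adjusted p of up to 0.139.

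To show what lies upstream of genes that fell, promoter windows from RefSeq are printed (GRCm38.p6, 250 bases before to 50 after the start). They are of the 2 collagen genes with the smallest p that had a window (Col1a1 had none). A cyclin and an interferon-induced gene, also printed, were chosen after their values were seen. Windows existed for 12090 of the 17862 tested genes. In the collagen windows capitals mark CCAAT or its complement and GGGCGG or its complement, the letters of the CCAAT and GC boxes. Of all 27025 promoter windows 37.9% held CCAAT and 35.9% held GGGCGG on either strand. In the cyclin window capitals mark CCAAT and TTTGAA (the letters of the CHR element, in 18.1% of windows), and in the interferon-induced window GAAANNGAA, the core of the interferon-stimulated response element (in 8.57%).
Col1a2: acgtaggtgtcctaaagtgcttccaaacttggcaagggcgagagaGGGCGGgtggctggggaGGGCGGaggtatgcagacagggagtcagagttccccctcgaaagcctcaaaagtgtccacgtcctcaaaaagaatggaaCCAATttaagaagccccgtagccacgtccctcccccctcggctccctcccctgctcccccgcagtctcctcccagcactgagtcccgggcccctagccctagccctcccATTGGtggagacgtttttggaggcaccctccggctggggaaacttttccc
Col5a1: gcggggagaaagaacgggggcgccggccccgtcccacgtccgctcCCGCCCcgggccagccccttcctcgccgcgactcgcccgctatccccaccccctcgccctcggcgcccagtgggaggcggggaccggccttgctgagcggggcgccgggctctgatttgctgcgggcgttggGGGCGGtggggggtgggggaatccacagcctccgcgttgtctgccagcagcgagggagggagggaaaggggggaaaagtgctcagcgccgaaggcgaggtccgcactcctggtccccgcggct
Ccnb2: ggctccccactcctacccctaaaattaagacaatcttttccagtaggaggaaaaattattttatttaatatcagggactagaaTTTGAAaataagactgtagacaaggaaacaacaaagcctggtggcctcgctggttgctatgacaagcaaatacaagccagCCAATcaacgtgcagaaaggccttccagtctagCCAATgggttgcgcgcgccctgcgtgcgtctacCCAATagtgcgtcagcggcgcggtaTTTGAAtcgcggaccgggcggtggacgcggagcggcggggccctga
Isg15: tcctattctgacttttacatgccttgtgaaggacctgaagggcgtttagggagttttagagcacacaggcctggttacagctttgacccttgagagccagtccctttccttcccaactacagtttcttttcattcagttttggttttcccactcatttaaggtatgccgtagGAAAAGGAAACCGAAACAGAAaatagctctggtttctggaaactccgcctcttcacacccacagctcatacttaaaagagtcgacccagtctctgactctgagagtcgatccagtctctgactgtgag
The windows lie at chr6:4505368-4505667, + strand (Col1a2), chr2:27886175-27886474, + strand (Col5a1), chr9:70421505-70421804, - strand (Ccnb2) and chr4:156200769-156201068, - strand (Isg15). Col1a2 held 2 CCAAT and 2 GGGCGG matches, and Col5a1 held 0 and 2. Col6a3, the next collagen gene by p with a window, held 0 and 0 and is not printed. Among the 14 matrix genes called lower that had a window, 4 held CCAAT and 8 held GGGCGG. A match says that the letters are there, not that a factor binds.

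**Figure D3:**
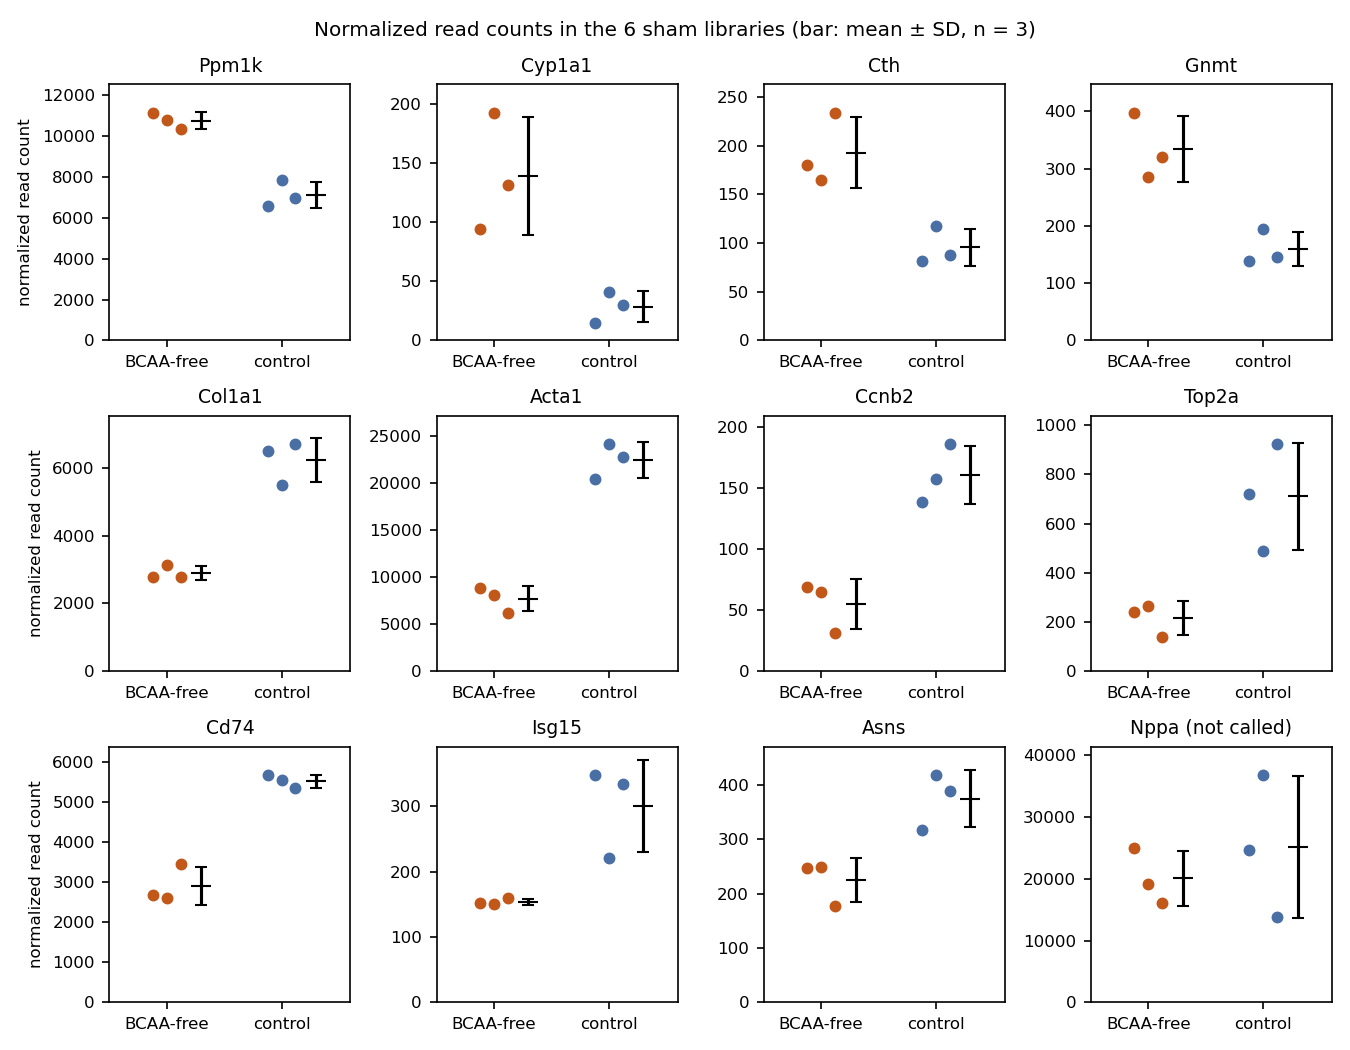
Normalized read counts of 12 genes in each library, BCAA-free sham hearts (orange, left) and control diet sham hearts (blue, right), with the mean ± SD of 3 libraries beside the points; axes start at 0. Ppm1k, Cyp1a1, Cth and Gnmt are higher and Col1a1, Acta1, Ccnb2, Top2a, Cd74, Isg15 and Asns lower in every BCAA-free library, while the values of Nppa overlap.

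A large fall was seen in Acta1, the skeletal actin that the heart re-expresses under load. Acta1 had 8846, 8057 and 6239.7 normalized reads in BCAA-free hearts and 20397, 24112 and 22755 in control diet hearts. The highest BCAA-free library was far below the lowest control diet library (log2 fold change -1.55 ± 0.13, limma adjusted p = 0.00322), and Acta1 kept its call without any 1 library, with an adjusted p of at most 0.0311. The cardiac actin Actc1 fell by much less (log2 fold change -0.37 ± 0.07, limma adjusted p = 0.023).

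The cytoplasmic actins, named after their values were seen, fell as well. Actb had 14729, 16346 and 15129 normalized reads in BCAA-free hearts and 22246, 23629 and 22827 in control diet hearts (log2 fold change -0.57 ± 0.058, limma adjusted p = 0.00263). Actg1 had 10285, 9478 and 8963 normalized reads in BCAA-free hearts and 14944, 14361 and 16298 in control diet hearts (log2 fold change -0.67 ± 0.069, limma adjusted p = 0.00263). Both encode actin of the cytoskeleton of non-muscle cells and are often used as reference genes, and neither overlapped between the diets. Actb kept its call without any 1 library, with an adjusted p of at most 0.0287, and Actg1 kept its call without any 1 library, with an adjusted p of at most 0.0178.

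The other markers of cardiac load did not share the fall of Acta1 past the test. Nppa, the atrial natriuretic peptide, had 24932, 19091 and 16151 normalized reads in BCAA-free hearts and 24598, 36814 and 13843 in control diet hearts (log2 fold change -0.24 ± 0.43, limma adjusted p = 0.819). Nppb (log2 fold change -0.045 ± 0.11, limma adjusted p = 0.866) and the slow myosin heavy chain Myh7 (log2 fold change 0.012 ± 0.17, limma adjusted p = 0.981) overlapped between the groups. Of 19 tested hypertrophic marker genes Acta1 was the only call in the main test (over all genes tested, 1.27% rose and 2.27% fell). It was also the only call with each library left out, except without control diet sham 2, where 2 fell. A fit of all 12 libraries called 0. The summed atrial markers, which include Nppa, ran from 29075 to 43021 normalized reads in BCAA-free hearts and from 23693 to 71766 in control diet hearts (two-sided exact permutation test p = 0.5), and their part in the Nppa values was not tested.

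The markers of blood vessel endothelium were lower as a sum in BCAA-free hearts. The 12 endothelial markers summed to 127132 to 140569 normalized reads in BCAA-free hearts and 146184 to 159698 in control diet hearts, with no overlap (two-sided exact permutation test p = 0.1, the smallest possible, adjusted 0.567). Of the 12, limma called 1, a fall (over all genes tested, 1.27% rose and 2.27% fell). It was Cdh5, the cadherin of endothelial junctions (log2 fold change -0.46 ± 0.10, limma adjusted p = 0.0371). Cdh5 lost its call without BCAA-free sham 1, 2 or 3 or control diet sham 1 or 3, with an adjusted p of up to 0.15. A fold change below 0 was seen in 11 of 12 and the median was -0.24. Cldn5, a tight junction gene, was at -1.0 with an adjusted p of 0.0517, and Flt1, a VEGF receptor, at 0.12 with 0.493.

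Larger falls were seen in vessel genes outside that list, named after their values were seen. How many other vessel genes did not fall was not counted. Bcl6b, a transcriptional repressor of endothelial cells, had 773, 875 and 993 normalized reads in BCAA-free hearts and 1968, 1954 and 2098 in control diet hearts (log2 fold change -1.19 ± 0.093, limma adjusted p = 0.000673). Vash1, the secreted vasohibin, had 567, 652 and 608 normalized reads in BCAA-free hearts and 1203, 1057 and 1414 in control diet hearts (log2 fold change -0.998 ± 0.11, limma adjusted p = 0.00322). Kit, the stem cell factor receptor, had 236, 289 and 259 normalized reads in BCAA-free hearts and 589.7, 572 and 533 in control diet hearts (log2 fold change -1.11 ± 0.12, limma adjusted p = 0.00263). In these 3 genes every BCAA-free library was below every control diet library, and each kept its call with any 1 library left out (adjusted p of at most 0.0123, 0.0318 and 0.0254).

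Apln, the peptide apelin of sprouting vessels, had 913, 910.2 and 1012 normalized reads in BCAA-free hearts and 1873, 1407 and 2008 in control diet hearts (log2 fold change -0.88 ± 0.12, limma adjusted p = 0.0099). Nos3, the endothelial nitric oxide synthase (log2 fold change -0.32 ± 0.066, limma adjusted p = 0.03), and Robo4, an endothelial guidance receptor (log2 fold change -0.29 ± 0.068, limma adjusted p = 0.0459), fell by smaller amounts. Apln lost its call without BCAA-free sham 1, with an adjusted p of up to 0.0747. Nos3 lost its call without BCAA-free sham 1 or 3 or control diet sham 3, with an adjusted p of up to 0.129. Robo4 lost its call without BCAA-free sham 1, 2 or 3 or control diet sham 3, with an adjusted p of up to 0.175. The part of endothelial content in these results was not tested. Prnd, which encodes the prion-like protein doppel, had the largest fall of the called genes named here, with 25.5, 13.4 and 17.8 normalized reads in BCAA-free hearts and 123, 57.2 and 89.6 in control diet hearts (log2 fold change -2.17 ± 0.34, limma adjusted p = 0.0108). Sez6l2, a membrane protein gene, had 122, 137 and 174 normalized reads in BCAA-free hearts and 513, 390.4 and 605 in control diet hearts (log2 fold change -1.79 ± 0.19, limma adjusted p = 0.00263), and both kept their call without any 1 library (adjusted p of at most 0.0492 and 0.0276).

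Genes of cell division were lower. Of 40 tested, 11 fell and 1 rose (over all genes tested, 2.27% fell and 1.27% rose). A fold change below 0 was seen in 34, and the median log2 fold change was -0.84. Ccnb2, the mitotic cyclin whose window above held 3 CCAAT and 2 TTTGAA matches, had 69.3, 65.2 and 31.8 normalized reads in BCAA-free hearts and 139, 157 and 186 in control diet hearts (log2 fold change -1.59 ± 0.29, limma adjusted p = 0.02). Ccnd1, the cyclin that starts the division cycle, had 2958, 3421 and 3219 normalized reads in BCAA-free hearts and 6067, 4976 and 6420.0 in control diet hearts (log2 fold change -0.86 ± 0.10, limma adjusted p = 0.00429). Top2a, the topoisomerase of dividing cells, had 242, 267 and 138 normalized reads in BCAA-free hearts and 719.6, 489 and 923 in control diet hearts (log2 fold change -1.72 ± 0.32, limma adjusted p = 0.0437). In each the groups were apart, but Top2a was spread widely over the control diet libraries.

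The S and M phase genes Ccna2 (-1.46), Ccnb1 (-1.03), Aurkb (-1.18), Kif11 (-1.04), Kif20a (-0.73), Racgap1 (-1.01), E2f1 (-1.02) and Mcm6 (-0.42, all log2 fold changes) fell. Outside the list, further division genes were among the largest falls by the naming rule. Pbk, a mitotic kinase, had 40.8, 51.8 and 16.5 normalized reads in BCAA-free hearts and 124, 102 and 131 in control diet hearts (log2 fold change -1.82 ± 0.37, limma adjusted p = 0.0348). Kif23 (-1.64), Nuf2 (-1.66), Cep55 (-1.71), Kif22 (-1.54) and Ckap2l (-1.54), all of spindle or cytokinesis, fell. Mki67, the standard proliferation marker, was at -1.81 with an adjusted p of 0.125 and was not called.

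Cenpf, a kinetochore gene, was the exception, with 3827, 3691 and 3219 normalized reads in BCAA-free hearts and 2781, 2270.1 and 2216 in control diet hearts (log2 fold change 0.57 ± 0.10, limma adjusted p = 0.0176). It was higher in every BCAA-free library. Cenpf lost its call without BCAA-free sham 1 or 2 or control diet sham 3, with an adjusted p of up to 0.0961. The number of division genes called lower was 1, 8 and 2 without BCAA-free sham 1, 2 and 3 in turn, and 2, 19 and 1 without control diet sham 1, 2 and 3 in turn. Ccnd1 kept its call throughout (adjusted p of at most 0.0318), while Ccnb2 lost its call without BCAA-free sham 1 or control diet sham 3, with an adjusted p of up to 0.0859 and Top2a lost its call without BCAA-free sham 1, 2 or 3 or control diet sham 1 or 3, with an adjusted p of up to 0.122. Among the 7 of the 11 genes that had a promoter window, 6 held CCAAT, 4 TTTGAA and 7 GGGCGG (37.9%, 18.1% and 35.9% of all windows did).

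Interferon response and antigen presentation genes were lower. Of 56 tested, 13 fell and 0 rose (over all genes tested, 2.27% fell and 1.27% rose). A fold change below 0 was seen in 55, and the median log2 fold change was -0.49. Cd74, the invariant chain of MHC class II, had 2681, 2597 and 3446 normalized reads in BCAA-free hearts and 5669.6, 5531 and 5335 in control diet hearts (log2 fold change -0.93 ± 0.10, limma adjusted p = 0.00363), and Cd74 kept its call without any 1 library, with an adjusted p of at most 0.0302. The class II chains H2-Aa (-0.87), H2-Ab1 (-0.72) and H2-Eb1 (-0.87) fell with it, and so did B2m, the light chain of class I (-0.72, all log2 fold changes). Whether reads were shared between related class II genes was not examined.

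Among interferon-induced genes, Isg15, a ubiquitin-like modifier, had 152, 150.1 and 159 normalized reads in BCAA-free hearts and 348, 220.0 and 334 in control diet hearts (log2 fold change -0.94 ± 0.18, limma adjusted p = 0.0244). Its window above held 3 overlapping GAAANNGAA matches on 1 strand, and 5 of the 9 called members with a window held that core (8.57% of all windows did). The window of Irf8, another called member, held 0. Ifi27 (-0.35), Ifi44 (-1.36), Ifit1 (-0.77), Oas2 (-0.71), the RNA sensor Ddx58 (-0.46), the transcription factor Irf8 (-0.48) and the immunoproteasome subunit Psmb10 (-0.29) fell. Isg15 lost its call without BCAA-free sham 1, 2 or 3 or control diet sham 1 or 3, with an adjusted p of up to 0.109. The number of members called lower was 2, 1 and 4 without BCAA-free sham 1, 2 and 3 in turn, and 4, 27 and 1 without control diet sham 1, 2 and 3 in turn.

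Of 33 inflammatory genes 3 fell, all chemokines (over all genes tested, 2.27% fell). They were Cxcl16 (log2 fold change -0.71 ± 0.11, limma adjusted p = 0.0099), Cxcl9 (log2 fold change -0.88 ± 0.18, limma adjusted p = 0.0348) and Cxcl10 (log2 fold change -1.37 ± 0.31, limma adjusted p = 0.0411). Cxcl13 had the lowest fold change of the list, -4.02, with an adjusted p of 0.364, and 9.17, 1.79 and 0 normalized reads in BCAA-free hearts and 14.6, 785 and 8.88 in control diet hearts, so 1 control diet library carried the difference. The falls of this list numbered 0, 2 and 2 without BCAA-free sham 1, 2 and 3 in turn, and 1, 6 and 1 without control diet sham 1, 2 and 3 in turn. Leukocyte genes named after their values were seen also fell. Il2rg, the shared chain of interleukin receptors, had 282, 280.5 and 338 normalized reads in BCAA-free hearts and 690.3, 524 and 599 in control diet hearts (log2 fold change -1.004 ± 0.13, limma adjusted p = 0.0063). The myeloid factor Spi1 (log2 fold change -0.71 ± 0.14, limma adjusted p = 0.0247) and the macrophage gene Aif1 (log2 fold change -0.83 ± 0.18, limma adjusted p = 0.0351) fell too. Il2rg lost its call without BCAA-free sham 1, with an adjusted p of up to 0.0555. Spi1 lost its call without BCAA-free sham 1, 2 or 3 or control diet sham 1 or 3, with an adjusted p of up to 0.103. Aif1 lost its call without BCAA-free sham 1, 2 or 3 or control diet sham 1 or 2, with an adjusted p of up to 0.149.

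Macrophage markers gave a call in each direction among 13 (over all genes tested, 1.27% rose and 2.27% fell). Lyve1 of resident macrophages rose (log2 fold change 0.41 ± 0.084, limma adjusted p = 0.0287) and the complement chain C1qc fell (log2 fold change -0.33 ± 0.074, limma adjusted p = 0.0411). A fold change below 0 was seen in 8 of these markers and above 0 in 5. Their summed level was 23442 to 26492 normalized reads in BCAA-free hearts and 20941 to 28037 in control diet hearts (two-sided exact permutation test p = 0.8). Lymphocyte markers summed to 605 to 678 normalized reads in BCAA-free hearts and 579 to 923 in control diet hearts (exact permutation p = 0.4). Neutrophil markers summed to 165 to 265 normalized reads in BCAA-free hearts and 205 to 989 in control diet hearts (exact permutation p = 0.4). The part of these cell types in the interferon and antigen presentation result was not tested.

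**Figure D4:**
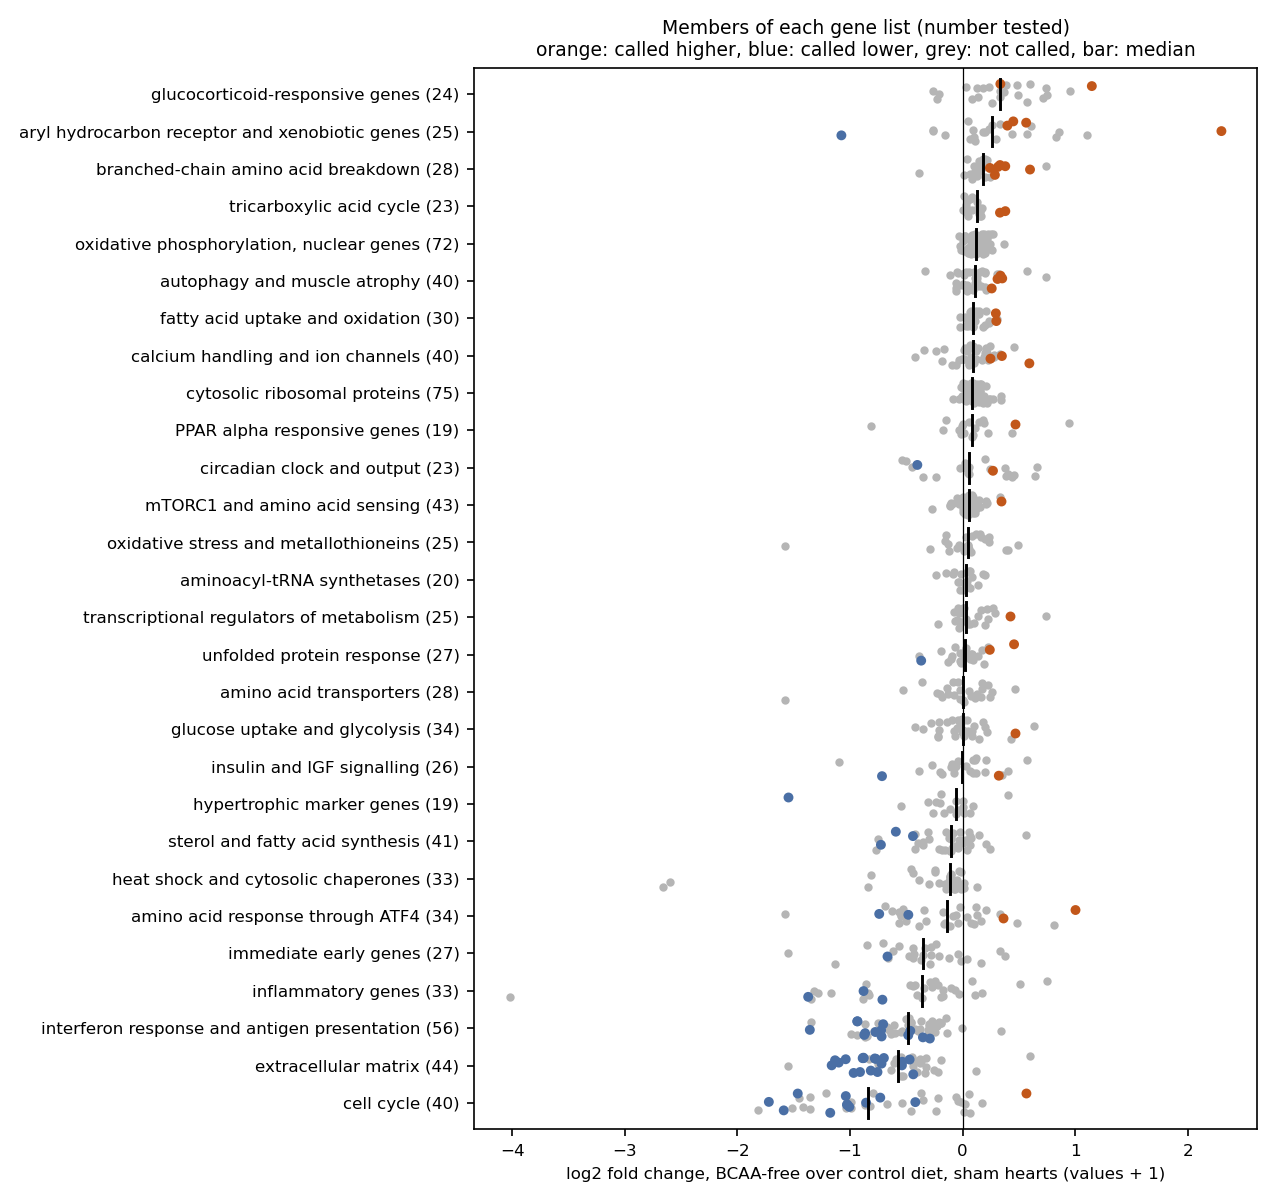
Log2 fold change (BCAA-free over control diet, sham hearts) of each tested member of 28 gene lists, with the number tested in parentheses and the lists ordered by their median (black bar). Orange and blue points are called members; called falls gather in the extracellular matrix, cell cycle and interferon lists, whose medians are -0.57, -0.84 and -0.49, while most members of most other lists lie near 0.

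Xenobiotic genes held the largest rise. Cyp1a1, the detoxifying oxidase that is the standard target of the aryl hydrocarbon receptor, had 93.7, 192 and 131 normalized reads in BCAA-free hearts and 14.6, 41 and 29.9 in control diet hearts (log2 fold change 2.30 ± 0.39, limma adjusted p = 0.0182). The groups did not overlap, but the level was low and varied within each. Of 25 tested genes of the list 4 rose and 1 fell (over all genes tested, 1.27% rose and 2.27% fell). Cyp1b1 (0.56), Gstm2 (0.45) and Fmo5 (0.40) also rose. The carboxylesterase Ces2e fell (92.7, 93.8 and 92.7 normalized reads in BCAA-free hearts and 172, 226 and 198 in control diet hearts, log2 fold change -1.08 ± 0.16, limma adjusted p = 0.01). Cyp1a1 lost its call without BCAA-free sham 1, 2 or 3 or control diet sham 3, with an adjusted p of up to 0.0741. The number of members called higher was 0, 0 and 0 without BCAA-free sham 1, 2 and 3 in turn, and 3, 8 and 0 without control diet sham 1, 2 and 3 in turn.

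Among genes of fatty acid oxidation, the citric acid cycle and oxidative phosphorylation the calls were all rises. Of 30 genes of fatty acid uptake and oxidation 2 rose (1.27% of all genes tested did), among them the lipoprotein lipase Lpl (log2 fold change 0.30 ± 0.058, limma adjusted p = 0.0257), and 28 of 30 had a fold change above 0 with a median of 0.090. Of 23 citric acid cycle genes 2 rose, Idh2 (log2 fold change 0.38 ± 0.061, limma adjusted p = 0.0124) and the pyruvate carboxylase Pcx (log2 fold change 0.33 ± 0.079, limma adjusted p = 0.0494), and all 23 were above 0 (median 0.13). Of 72 nuclear oxidative phosphorylation genes limma and edgeR called 0 and DESeq2 3, all higher; 20 had an unadjusted p under 0.05 and 68 were above 0 (median 0.12). Scaled to reads outside the mitochondrially coded genes, these 3 medians became 0.044, 0.082 and 0.077, and the rises of the 3 lists became 0, 1 and 0. The rises of the fatty acid list numbered 0, 0 and 0 without BCAA-free sham 1, 2 and 3 in turn, and 3, 2 and 1 without control diet sham 1, 2 and 3 in turn, and those of the citric acid cycle list 0, 1 and 0 without BCAA-free sham 1, 2 and 3 in turn, and 1, 1 and 1 without control diet sham 1, 2 and 3 in turn.

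The fasting genes Pdk4 and Ucp3 varied widely within both groups and were not called. Pdk4, the kinase that blocks glucose oxidation, had 22077, 116730.0 and 48776 normalized reads in BCAA-free hearts and 26876, 45763 and 70239.8 in control diet hearts (log2 fold change 0.18 ± 0.78, limma adjusted p = 0.931). Ucp3, a mitochondrial carrier, had 2788, 9003 and 3396 normalized reads in BCAA-free hearts and 2460.4, 4556 and 7795 in control diet hearts (log2 fold change -0.012 ± 0.69, limma adjusted p = 0.995), and Angptl4, an inhibitor of lipoprotein lipase, had 206, 1020.1 and 386 normalized reads in BCAA-free hearts and 241, 316 and 894 in control diet hearts (log2 fold change 0.084 ± 0.85, limma adjusted p = 0.972). All 3 were highest in BCAA-free sham 2 and control diet sham 3. Txnip, which limits glucose uptake, was the only limma call among 34 genes of glucose uptake and glycolysis (log2 fold change 0.46 ± 0.089, limma adjusted p = 0.0257). Over all genes tested, 1.27% rose and 2.27% fell. At an unadjusted limma p under 0.05, 5 of the 34 were higher and 4 lower, and DESeq2 called 3 higher and 3 lower. Scaled to reads outside the mitochondrially coded genes, 1 rose and 1 fell.

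Of 41 lipid synthesis genes 3 were called, all of them falls (over all genes tested, 2.27% fell). Scd2, a fatty acid desaturase, had 2378, 2519.9 and 2154 normalized reads in BCAA-free hearts and 3219, 3661 and 3761 in control diet hearts (log2 fold change -0.59 ± 0.08, limma adjusted p = 0.00698). The elongases Elovl5 (log2 fold change -0.44 ± 0.073, limma adjusted p = 0.0138) and Elovl6 (log2 fold change -0.73 ± 0.16, limma adjusted p = 0.0362) fell as well. Their regulator Srebf1 (log2 fold change 0.026 ± 0.082, limma adjusted p = 0.897) and the desaturase Scd1 (log2 fold change -0.15 ± 0.13, limma adjusted p = 0.588) overlapped between the groups. Scd2 lost its call without BCAA-free sham 1, with an adjusted p of up to 0.0555; the falls of the list numbered 0, 1 and 1 without BCAA-free sham 1, 2 and 3 in turn, and 2, 4 and 2 without control diet sham 1, 2 and 3 in turn.

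Of 40 autophagy and muscle atrophy genes 4 rose and 0 fell (over all genes tested, 1.27% rose and 2.27% fell). The 4 were Atg14 (0.35) and Atg13 (0.31), which start autophagosomes, Gabarapl1 (0.26), which coats them, and the ubiquitin ligase Fbxo31 (0.34, all log2 fold changes). The atrophy ligases Fbxo32 (log2 fold change 0.30 ± 0.13, limma adjusted p = 0.235) and Trim63 (log2 fold change 0.17 ± 0.19, limma adjusted p = 0.682) were not called, nor was their activator Foxo1 (log2 fold change 0.029 ± 0.10, limma adjusted p = 0.904). The number of members that rose was 0, 0 and 0 without BCAA-free sham 1, 2 and 3 in turn, and 2, 4 and 2 without control diet sham 1, 2 and 3 in turn, and it was 0 when scaled to reads outside the mitochondrially coded genes.

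Ion channel and calcium genes gave 3 rises and 0 falls of 40 (over all genes tested, 1.27% rose and 2.27% fell). Kcnv2, a modulatory potassium channel subunit, had 1356, 1384 and 1619.6 normalized reads in BCAA-free hearts and 976, 990.0 and 916 in control diet hearts (log2 fold change 0.59 ± 0.086, limma adjusted p = 0.00886), and Kcnv2 kept its call without any 1 library, with an adjusted p of at most 0.0467. The sodium-calcium exchanger Slc8a1 (log2 fold change 0.35 ± 0.07, limma adjusted p = 0.0287) and the pore of the ATP-sensitive potassium channel Kcnj11 (log2 fold change 0.25 ± 0.057, limma adjusted p = 0.0449) rose by smaller amounts. Slc8a1 lost its call without BCAA-free sham 1, 2 or 3, with an adjusted p of up to 0.141, and Kcnj11 lost its call without BCAA-free sham 1, 2 or 3 or control diet sham 1 or 3, with an adjusted p of up to 0.188.

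Glucocorticoid-responsive genes had the highest median of the pathway lists, 0.33, with 2 of 24 called higher (over all genes tested, 1.27% rose). They were Hif3a, a member of the hypoxia-inducible factor family, with 203, 184 and 124 normalized reads in BCAA-free hearts and 73.2, 102 and 55.7 in control diet hearts (log2 fold change 1.15 ± 0.26, limma adjusted p = 0.0411), and the transcription factor Klf9 (log2 fold change 0.34 ± 0.055, limma adjusted p = 0.0136). Hif3a lost its call without BCAA-free sham 1, 2 or 3 or control diet sham 1 or 3, with an adjusted p of up to 0.175. Klf9 lost its call without BCAA-free sham 1, 2 or 3, with an adjusted p of up to 0.076. DESeq2 called 11 members higher, and limma called 0, 0 and 0 without BCAA-free sham 1, 2 and 3 in turn, and 3, 8 and 2 without control diet sham 1, 2 and 3 in turn. In TAC hearts the median of the 24 members was -0.16, with 4 called higher and 3 lower. The difference of the diet effects was called for 2 members. Of 23 clock genes 1 rose and 1 fell (over all genes tested, 1.27% rose and 2.27% fell). The fall was in the repressor Cry1 (log2 fold change -0.40 ± 0.086, limma adjusted p = 0.0348). Cry1 lost its call without BCAA-free sham 1, 2 or 3 or control diet sham 1 or 3, with an adjusted p of up to 0.142. Without control diet sham 2, 5 clock genes rose and 1 fell, and limma called 0 in either direction without each of the other 5 libraries in turn.

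Of 27 genes of the unfolded protein response 2 rose and 1 fell (over all genes tested, 1.27% rose and 2.27% fell). Herpud1, of endoplasmic reticulum quality control, rose (log2 fold change 0.46 ± 0.094, limma adjusted p = 0.0348), as did the co-chaperone Dnajb9 (log2 fold change 0.24 ± 0.058, limma adjusted p = 0.0499), and Edem1, which sends misfolded proteins to breakdown, fell (log2 fold change -0.37 ± 0.074, limma adjusted p = 0.0289). The rises numbered 0, 0 and 0 without BCAA-free sham 1, 2 and 3 in turn, and 0, 2 and 0 without control diet sham 1, 2 and 3 in turn, and the falls 0, 0 and 0 without BCAA-free sham 1, 2 and 3 in turn, and 1, 1 and 0 without control diet sham 1, 2 and 3 in turn. Among 33 heat shock genes limma called 0, edgeR 1 lower and DESeq2 5 lower, with 9 at an unadjusted p under 0.05 (1 higher, 8 lower). Among 25 oxidative stress genes limma and edgeR called 0 and DESeq2 2 higher, with 4 at an unadjusted p under 0.05. Of insulin and growth factor genes, Igfbp7 fell (log2 fold change -0.72 ± 0.12, limma adjusted p = 0.0243) and Igfbp3 rose (log2 fold change 0.32 ± 0.066, limma adjusted p = 0.0301), while Igf1 had 834, 949.5 and 926 normalized reads in BCAA-free hearts and 1347, 1043 and 1163 in control diet hearts and was not called (log2 fold change -0.38 ± 0.10, limma adjusted p = 0.0667).

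Further large rises by the naming rule belonged to no list. Ptgds, the prostaglandin D synthase, had 68719.6, 44060.2 and 49084 normalized reads in BCAA-free hearts and 22398, 26008 and 21091 in control diet hearts (log2 fold change 1.20 ± 0.18, limma adjusted p = 0.0277). Pim3, a survival kinase, had 15247, 14659 and 14135 normalized reads in BCAA-free hearts and 8549, 9450.5 and 6948 in control diet hearts (log2 fold change 0.83 ± 0.10, limma adjusted p = 0.00712). Both were higher in every BCAA-free library. Pim3 lost its call without BCAA-free sham 1, with an adjusted p of up to 0.0555, and Ptgds lost its call without BCAA-free sham 3 or control diet sham 1 or 3, with an adjusted p of up to 0.123.

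Lvrn, an aminopeptidase, had 338, 257 and 369.7 normalized reads in BCAA-free hearts and 177, 191 and 148 in control diet hearts (log2 fold change 0.89 ± 0.17, limma adjusted p = 0.0222). Spock2, a matrix proteoglycan (log2 fold change 0.80 ± 0.17, limma adjusted p = 0.0443), and Bcl2l11, the cell death protein Bim (log2 fold change 0.72 ± 0.13, limma adjusted p = 0.0251), rose as well. Plag1, a zinc-finger factor (log2 fold change 0.72 ± 0.14, limma adjusted p = 0.0247), and Abca12, a lipid transporter (log2 fold change 0.74 ± 0.13, limma adjusted p = 0.0153), completed this group. Armc2, named after its values were seen, had one of the smallest p-values of any rise, with 5739, 5402 and 5403 normalized reads in BCAA-free hearts and 3308, 3419 and 3549 in control diet hearts (log2 fold change 0.69 ± 0.056, limma adjusted p = 0.000801), and Armc2 kept its call without any 1 library, with an adjusted p of at most 0.0142.

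Zinc-finger genes that lie near each other on mouse chromosome 2 (GRCm38) also rose. Zfp972 (2, 177903340 to 177925613, - strand) had 184, 162 and 154 normalized reads in BCAA-free hearts and 55.7, 83 and 57.3 in control diet hearts (log2 fold change 1.36 ± 0.20, limma adjusted p = 0.0099). Its neighbour Gm14327 (2, 177897096 to 177905784, + strand), named after its values were seen, had 1519, 1472 and 1374 normalized reads in BCAA-free hearts and 767, 949 and 792 in control diet hearts (log2 fold change 0.80 ± 0.094, limma adjusted p = 0.00383). Zfp970 (2, 177464733 to 177478129, + strand), also named after its values were seen, rose by less (log2 fold change 0.38 ± 0.079, limma adjusted p = 0.0327). The 3 genes belong to a family of near-identical copies, so reads may have been split among them and the single values are uncertain.

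The same diet comparison in TAC hearts, which shares no library with the sham one, called 3025 of 18039 genes (16.8%, with 6.23% higher and 10.5% lower). Of the 227 genes that rose in sham hearts, 224 (98.7%) had a fold change above 0 in TAC hearts, where 53.1% of all genes did, and 141 were called higher there. Of the 406 that fell, 391 (96.3%) were below 0, where 46.9% of all genes were, and 282 were called lower. The median log2 fold change of the risen genes was 0.52 in TAC hearts and 0.35 in sham hearts, and that of the fallen genes was -0.73 in TAC hearts and -0.51 in sham hearts.

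A test of the difference between the diet effects, TAC minus sham, called 112 of 17571 genes (0.637%), of which 17 were among the 633. The difference was called for 7 of the 44 matrix genes and 5 of the 40 cell division genes tested. It was called for 0 of the 56 interferon and antigen presentation genes. Most single changes named above were not shown to differ between unloaded and loaded hearts. Col1a1, for example, had a log2 fold change of -2.41 ± 0.34, adjusted p = 0.00233 in TAC hearts and -1.10 ± 0.083 in sham hearts (difference -1.31 ± 0.44, adjusted p = 0.193). Ppm1k had 0.88 ± 0.12, adjusted p = 0.00176 in TAC hearts and 0.60 ± 0.07 in sham hearts (difference 0.28 ± 0.15, adjusted p = 0.406). Cyp1a1 had 4.49 ± 0.45, adjusted p = 0.000483 in TAC hearts and 2.30 ± 0.39 in sham hearts (difference 2.20 ± 0.63, adjusted p = 0.115).

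The difference passed for Bckdha, the ketoacid dehydrogenase subunit that narrowly missed its own test in sham hearts: 0.77 ± 0.094, adjusted p = 0.000927 in TAC hearts against 0.24 ± 0.06 in sham hearts (difference 0.53 ± 0.11, adjusted p = 0.0386). It also passed for Col16a1, with -1.74 ± 0.18, adjusted p = 0.0005 in TAC hearts against -0.44 ± 0.092 in sham hearts (difference -1.30 ± 0.22, adjusted p = 0.0229). Of the genes called in both surgeries, mt-Tv and Hmcn2 were opposite: each rose in TAC hearts and fell in sham hearts. The number of differences called was unstable, from 15 without BCAA-free sham 2 to 1789 without control diet TAC 3.

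**Figure D5:**
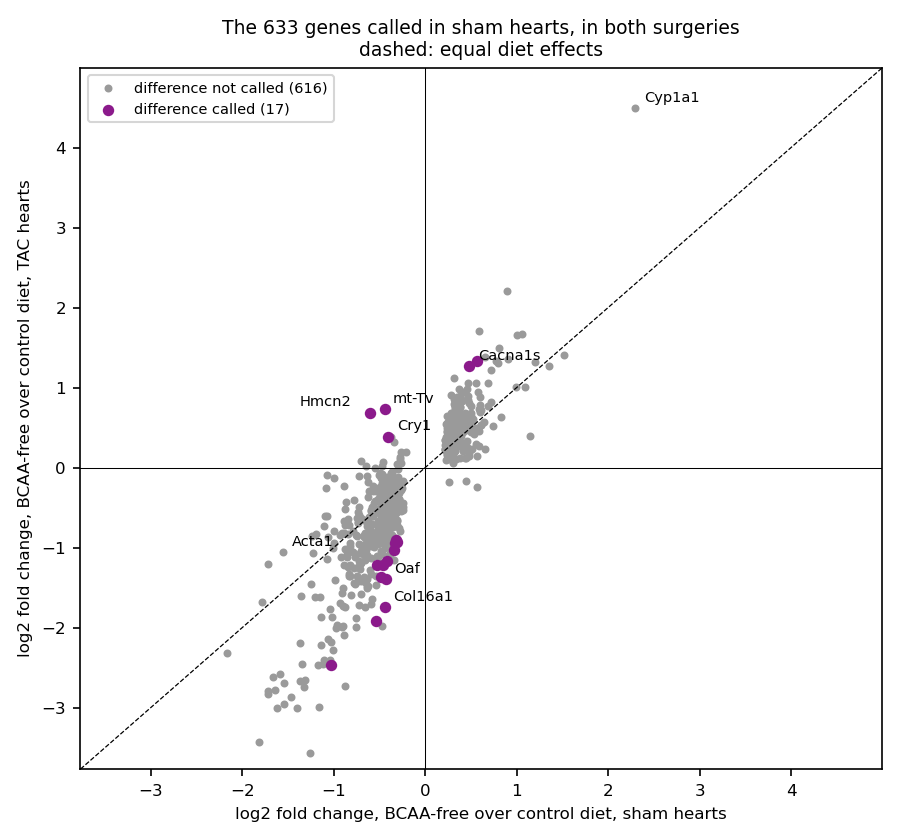
Log2 fold change of the diet in TAC hearts (vertical) against that in sham hearts (horizontal) for the 633 genes called in sham hearts, BCAA-free over control diet in both. Purple points are the 17 genes whose 2 diet effects differed by the test, and the dashed line marks equal effects; nearly all points share their sign, and mt-Tv, Hmcn2 and Cry1 are purple points above 0 in TAC hearts and below 0 in sham hearts.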

How the data were processed

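Poly(A) RNA from Trizol extracts was sequenced by the authors; Trimmomatic 0.36, STAR 2.5.2b, Subread 1.5.2, DESeq2 and the builds GRCm38 and mm10 appear, without their roles, per the submitters' processing notes. The authors deposited, for each comparison, a signal per gene and library (a normalized read count: reads divided by a scale factor), beside a log2 fold change and p-values with adjusted p-values. Every value of the sham table was a whole number of reads times 1 step per library (100% within 1e-04 reads), and a gene in it had at least 61 reads over the 6 libraries. The authors' deposited table called 1529 genes at adjusted p under 0.05, 572 higher and 957 lower.

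Here 48 genes averaging under 10 were dropped, the rest were set to log2 after adding a pseudocount of 1, and the 3 BCAA-free sham libraries were tested against the 3 control diet sham libraries with limma 3.58.1 (trend, robust) in R 4.3.3, with Benjamini-Hochberg adjustment. Fold changes on this scale understate those of low genes. A gene was called at an adjusted p under 0.05. edgeR 4.0.16 and DESeq2 1.42.0 ran on the recovered reads. The diet effects in TAC and sham hearts were compared in 1 limma fit of 12 libraries. Sums of cell type markers used exact permutation tests. No replicates of a group were near-duplicates. Named genes were the 12 strongest called rises and the 12 strongest called falls (groups that did not overlap, a mean of 50 or more, and no predicted gene, Rik gene, clone or pseudogene), the 3 smallest p of each list with at least 3 calls, a set list of metabolic and cardiac genes, and, for the difference, 5 genes a direction by rank of p; others are marked in the text or are called members of a list. The members and the gene lists were chosen with earlier results of these data known. The scripts were tested on simulated data. The values of a few genes are not reported here. Gene positions are from GENCODE for GRCm38 (17809 genes found) and promoter sequences from RefSeq.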

Additional observations from a re-analysis of the deposited data

Results flagged for a closer look

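The limma test of the difference (TAC minus sham) was adjusted over 17571 genes. By it, the diet effect differed between TAC and sham hearts for 11 of the genes named by rule. Of these, 10 were chosen by that p, so their sizes are a selection. Col8a1 and E2f1, named above as called list members, also passed this limma test (adjusted p = 0.0428 and 0.0413) and are not described here. Values are log2 fold changes of BCAA-free over control diet ± SE, 3 libraries a group.

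For Hmcn2, a large matrix protein gene, the effect was 0.69 ± 0.13 in TAC hearts and -0.60 ± 0.13 in sham hearts, a difference of 1.29 ± 0.20, adjusted p = 0.0145. The mitochondrial valine tRNA gene mt-Tv had 0.73 ± 0.18 in TAC hearts and -0.44 ± 0.077 in sham hearts, a difference of 1.17 ± 0.22, adjusted p = 0.0303. This gene is short (mitochondrial positions 1025 to 1093) and the libraries were of poly(A) RNA. Whether its reads came from the tRNA itself was not tested. The clock repressor Cry1 had 0.39 ± 0.12 in TAC hearts and -0.40 ± 0.086 in sham hearts, a difference of 0.79 ± 0.14, adjusted p = 0.0251. These 3 had opposite signs in the 2 surgeries.

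In the other 8 the sign was shared and the effect was larger in TAC hearts. Bckdha, of the ketoacid dehydrogenase, had 0.77 ± 0.094 in TAC hearts and 0.24 ± 0.06 in sham hearts (difference 0.53 ± 0.11, adjusted p = 0.0386). Col16a1, a collagen chain, had -1.74 ± 0.18 in TAC hearts and -0.44 ± 0.092 in sham hearts (difference -1.30 ± 0.22, adjusted p = 0.0229). Pcolce, which speeds procollagen processing, had -1.22 ± 0.12 in TAC hearts and -0.46 ± 0.063 in sham hearts (difference -0.75 ± 0.14, adjusted p = 0.0326). Mcm6, of the replication helicase, had -1.17 ± 0.11 in TAC hearts and -0.42 ± 0.10 in sham hearts (difference -0.75 ± 0.14, adjusted p = 0.0353). Cacna1s, the calcium channel of skeletal muscle, had 1.27 ± 0.11 in TAC hearts and 0.48 ± 0.093 in sham hearts (difference 0.79 ± 0.13, adjusted p = 0.0237). Oaf had -1.40 ± 0.14 in TAC hearts and -0.43 ± 0.089 in sham hearts (difference -0.96 ± 0.18, adjusted p = 0.0298). Prelid1, a mitochondrial lipid carrier gene, had -0.91 ± 0.092 in TAC hearts and -0.32 ± 0.062 in sham hearts (difference -0.59 ± 0.10, adjusted p = 0.0238). The protein-coding gene A530016L24Rik had 1.33 ± 0.12 in TAC hearts and 0.57 ± 0.07 in sham hearts (difference 0.76 ± 0.14, adjusted p = 0.0296). Without BCAA-free TAC 3 none of the 11 differences passed, and without control diet TAC 3 all 11 did.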

How the results depend on the processing

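The 633 calls (227 higher, 406 lower) stayed within 1.5 times of these numbers under pseudocounts 0.5 and 5, other filters on low values, TMM scaling, edgeR and non-robust variances. DESeq2 gave 1522 (566 higher, 956 lower), a fit of all 12 libraries 169 (38 higher, 131 lower), and scaling to the reads outside mitochondrially coded genes 116 higher. Leaving out 1 library gave 50 to 1071 calls, 14 to 351 higher and 36 to 720 lower. The same replicate numbers did not pair the libraries: the correlations of same-numbered deviations were -0.094, 0.0013 and -0.094, and no library matched its own number best. With the replicate number as a block 276 genes were called, 90 higher and 186 lower. The cause of these moves was not tested.

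The 112 differences between the diet effects became 50 with the replicate block and 816 with DESeq2, and 15 to 1789 when 1 library was left out. TMM and mitochondrial-free scaling were not run for it.

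Of the 104 called genes whose values were followed, 104 kept their call with DESeq2, 103 with edgeR, 55 with the block and 43 in the fit of 12 libraries. Genes that were not called changed sign with 1 library left out, over these ranges of log2 fold change: Slc3a2 -0.022 to 0.13, Arntl -1.33 to 0.069, Nr1d1 -0.044 to 0.10, Nppa -0.61 to 0.097, Nppb -0.18 to 0.024, Srebf1 -0.069 to 0.089, Foxo1 -0.041 to 0.13, Sesn2 -0.065 to 0.11, Pdk4 -0.43 to 0.77, Per1 -0.20 to 0.17, Angptl4 -0.53 to 0.65, Myh7 -0.17 to 0.18 and Ucp3 -0.53 to 0.39. Scaling without mitochondrially coded genes turned Nr1d1 (-0.0011), Srebf1 (-0.020), Foxo1 (-0.017), Sesn2 (-0.0095), Per1 (-0.014) and Myh7 (-0.034). edgeR and DESeq2 turned Myh7 (-0.018 and -0.017) and Ucp3 (0.036 and 0.036). With 3 libraries a group, the exact tests cannot go below 0.1, and genes under a mean of 10 normalized reads were not tested.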

Other observations

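The 42 genes called with every library left out in turn, chosen after their values were seen, included further genes of vessel and axon guidance. Nrp2 (-0.83) and Plxnd1 (-0.58), both semaphorin receptors, and the semaphorin Sema3f (-0.64) were lower in BCAA-free hearts, as was Nrarp, a Notch feedback gene (-1.24, all log2 fold changes). The intermediate filament gene Nes (-0.84), the actin bundler Fscn1 (-1.21), the collagen receptor Mrc2 (-0.63), the matrix protein Emilin1 (-0.64) and the complement gene C7 (-1.07) fell too. Rises in this set included the ferroxidase Cp (0.59) and the sarcoglycan Sgcd (0.52).

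The remaining lists gave single calls (over all genes tested, 1.27% rose and 2.27% fell). Nr1h3, the liver X receptor alpha, rose (0.42) among 25 transcriptional regulators of metabolism, Txnip rose among 19 genes that answer PPAR alpha, and Ier2 fell (-0.67) among 27 immediate early genes, whose median was -0.35. The 10 nerve markers, of which 8 were tested, summed to 4228 to 4766 normalized reads in BCAA-free hearts and 5083 to 5425 in control diet hearts, with no overlap (two-sided exact permutation test p = 0.1, the smallest possible, adjusted 0.567). The epicardial marker Wt1 fell (-0.82), and the smooth muscle gene Smtn fell by a small amount (-0.21).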
